A study of Mus musculus with 2 samples.

Results

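The 6 S100 genes *S100a8*, *S100a9*, *S100a4*, *S100a6*, *S100a10* and *S100a11*, of 27998 genes in the files, were followed by cell class in single-cell RNA-seq of mouse ear skin with allergic contact dermatitis (ACD) and of control ear skin. They were chosen by name, with earlier results of these data known. The study profiled ICR mice of 7 to 8 weeks, male per the methods, with 1 library per condition. The ACD mice were painted with 1.0% DNFB (2,4-dinitrofluorobenzene, a skin-sensitizing hapten) on the back, challenged 6 days later with 0.2% DNFB on the ears and sampled 60 hr after that, and the control was healthy ear skin with no vehicle stated in the labels. Skin was digested with collagenase D and DNase1 and dead cells were removed, and how many mice entered each library was not given in the sources used here.

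S100 proteins are small calcium-binding proteins that pair up and change shape when calcium rises. S100A8 and S100A9 form calprotectin, which fills the cytosol of neutrophils, binds zinc and manganese, and acts as an alarmin on receptors such as TLR4 and RAGE after release; keratinocytes make it in wounded or inflamed epidermis. S100A4 is known for motile fibroblasts and memory T cells, S100A6 for growing cells, S100A10 as the partner that carries annexin A2 to the membrane, and S100A11 as a partner of annexin A1.

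All 6 genes lie on chromosome 3 (GRCm38, GENCODE M21 gene models), each with 3 exons in its principal transcript. *S100a4* (ENSMUSG00000001020, chr3:90603771-90606045, plus strand), *S100a6* (ENSMUSG00000001025, chr3:90612882-90624181, plus strand), *S100a8* (ENSMUSG00000056054, chr3:90668978-90670035, plus strand) and *S100a9* (ENSMUSG00000056071, chr3:90692632-90695721, minus strand) form a cluster. *S100a11* (ENSMUSG00000027907, chr3:93520488-93526287, plus strand) and *S100a10* (ENSMUSG00000041959, chr3:93555080-93564643, plus strand) lie next to each other farther along the chromosome. The promoters of *S100a8* and *S100a9* are shown because these 2 genes shared their pattern over cell classes more closely than any other member pair. They come from RefSeq (GRCm38.p6), 250 bases before to 50 after the start, 5′ to 3′ on each gene's strand, at chr3:90668821-90669120 for *S100a8* and chr3:90695672-90695971 for *S100a9*. Capitals mark matches on either strand to a C/EBP motif (TTNNGNAA) or a TATA box (TATAAA).
S100a8: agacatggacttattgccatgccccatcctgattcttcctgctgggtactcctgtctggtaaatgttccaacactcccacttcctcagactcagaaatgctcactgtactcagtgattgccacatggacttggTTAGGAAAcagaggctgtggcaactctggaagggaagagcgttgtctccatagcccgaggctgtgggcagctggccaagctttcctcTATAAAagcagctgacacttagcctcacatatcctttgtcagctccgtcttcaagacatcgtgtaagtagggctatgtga
S100a9: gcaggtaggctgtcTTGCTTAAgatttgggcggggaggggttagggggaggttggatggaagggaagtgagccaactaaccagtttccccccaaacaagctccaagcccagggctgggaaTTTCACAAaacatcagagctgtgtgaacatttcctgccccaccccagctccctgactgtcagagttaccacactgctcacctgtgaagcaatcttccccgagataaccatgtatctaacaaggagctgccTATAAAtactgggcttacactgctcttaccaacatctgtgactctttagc

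The *S100a8* window held 1 C/EBP match and 1 TATA box, and the *S100a9* window held 2 C/EBP matches and 1 TATA box. The same C/EBP letters occurred in 40.7% of 32851 mouse promoters of this length and the TATA box in 13.6%. *S100a4* had a TATA box and no C/EBP match, and *S100a6* and *S100a11* had neither. A search for AP-1 letters (TGANTCA) found 2 matches in *S100a11* and none in the other 4 windows, while 7.81% of all promoters held them. Matches are a description of these windows. No entry for *S100a10* was in the table used.

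The files held unique molecular identifiers (UMIs, 1 per captured RNA molecule), and levels are UMIs per 1000000 UMIs of a class of cells (CPM). After the filter on genes, UMIs and mitochondrial RNA, 12213 control cells and 11665 ACD cells remained, with median depths of 6850 and 7447 UMIs. Cells were gated into 14 classes by marker genes that included no S100 gene. The summed markers of each class were highest in the cells gated to it, but the gate used these same markers, so this is no independent check. Ungated cells made up 16.6% of control and 18.2% of ACD cells, and 11 classes had at least 20 cells in both libraries. Of 50 barcodes that the libraries shared, 47 were kept in both and 5 of these fell into the same class. With 1 library per condition no test was possible. Intervals are 95% exact Poisson, binomial or conditional binomial intervals and cover counting error only, not the spread between cells, mice or captures. Library, batch and condition cannot be told apart, and neither can fewer cells of a type and less RNA per cell in a sum over cells.

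Calprotectin RNA was far more abundant in ACD skin, whereas the other 4 genes differed little in total. Over all kept cells, *S100a8* went from 3.67 CPM in control (338 UMIs) to 68.0 in ACD (6775 UMIs), a log2 ratio of 4.21 (4.06 to 4.37). *S100a9* went from 9.58 (883 UMIs) to 135 CPM (13426 UMIs), a log2 ratio of 3.81 (3.72 to 3.91). Among 15356 genes with at least 50 UMIs these ratios ranked 34 and 12 from the highest, on a log2 scale with 10 CPM added. *S100a4* was at 2030 and 1877 CPM (log2 ratio -0.11), *S100a6* at 3222 and 3114 (-0.05), *S100a10* at 1044 and 1174 (0.17), and *S100a11* at 382 and 463 (0.28). By the rule of at least 2-fold on that scale, 2 of 6 members were higher and none lower, where 1.99% of all genes were higher and 0.221% lower.

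Neutrophils were the main source of the pair. The gate found 2 neutrophils in control and 61 in ACD skin, at median depths of 1919 and 1995 UMIs, and 1 and 21 further cells carried at least 3 neutrophil markers together with markers of another class. The 61 ACD neutrophils held 0.146% of all UMIs of the library but 82.5% (81.5 to 83.3%) of its *S100a8* UMIs and 82.6% (82.0 to 83.3%) of its *S100a9* UMIs. Together with the mixed cells the shares were 92.1% and 94.1%. Of the 21 mixed ACD cells, 9 held an *S100a8* UMI and 10 an *S100a9* UMI. In control, 3 neutrophil-bearing cells held 77.8% of *S100a8* and 82.4% of *S100a9* UMIs, and 1 ungated cell held 29 and 142 more. In the ACD library keratinocytes held 3.07% of *S100a8* and 2.43% of *S100a9* UMIs, and T cells 0.502% and 0.425%.

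**Figure D1:**
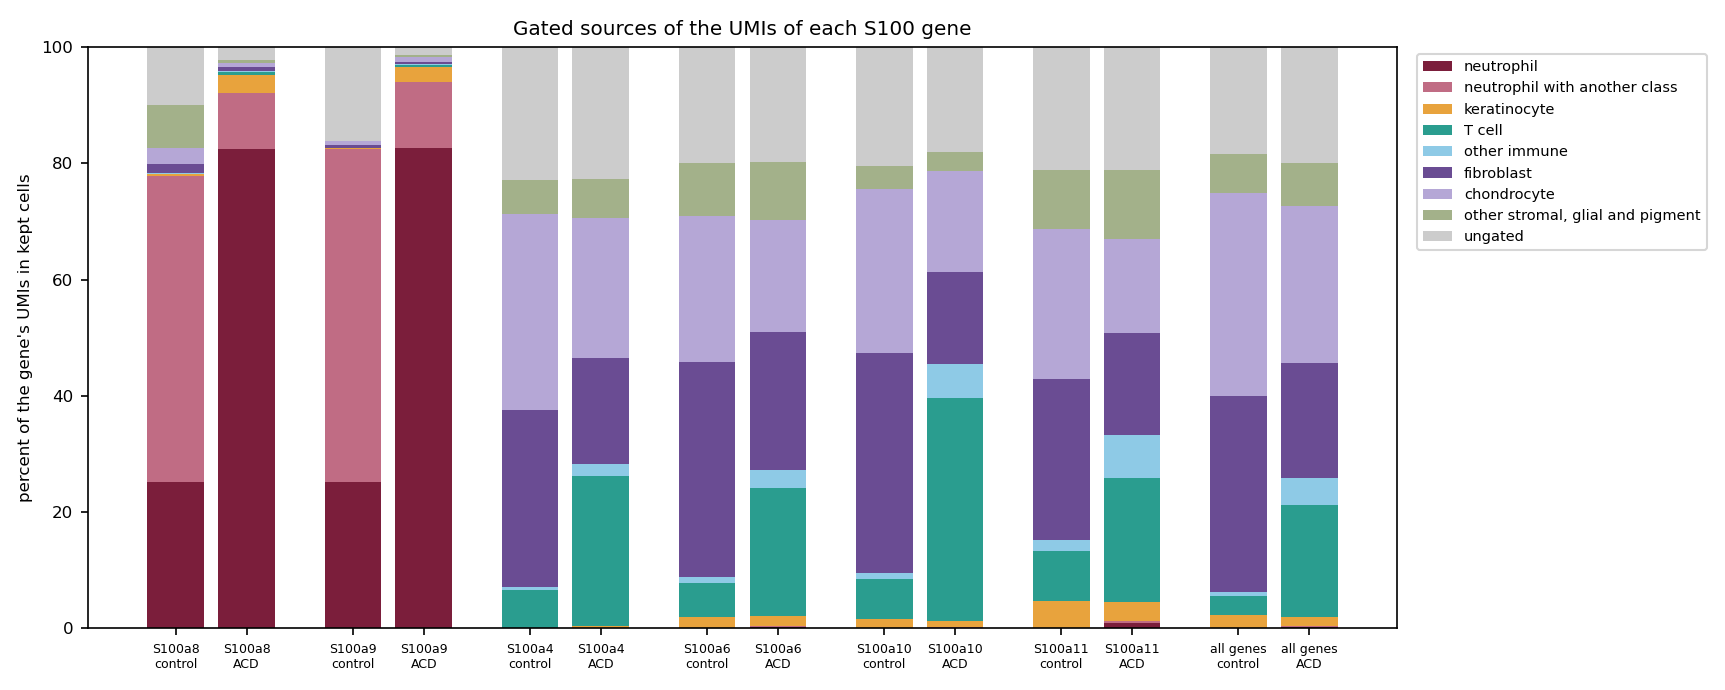
Stacked bars give the percentage of each gene's UMIs (vertical axis) that lay in each gated class, for control and ACD, with all genes together at the right. Neutrophil-bearing cells fill most of the *S100a8* and *S100a9* bars in both libraries. They number 3 in control and 82 in ACD, and some of the 82 held neither gene. T cells take over part of the fibroblast and chondrocyte share of the other 4 genes in ACD.

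Within neutrophils the pair made up a large part of the transcriptome. *S100a8* reached 38342 (37343 to 39361) and *S100a9* 76155 (74744 to 77585) CPM in the ACD neutrophils. Per cell, *S100a8* ranged from 0 to 13.6% of the UMIs with a median of 3.15%, and *S100a9* from 0 to 18.5% with a median of 7.23%. Their sum had a median of 10.5% and a highest value of 32.1%. In 59 of 61 cells both were detected, 2 cells had neither, and Pearson's r of their log2 levels over the 61 cells was 0.93 and over the 59 was 0.84, a description of cells of 1 library that also share their depth. The 2 control neutrophils, summed, had 22147 (17690 to 27385) CPM of *S100a8* and 58103 (50727 to 66250) of *S100a9*. Singly, *S100a8* was 4.10% and 0.85% of their UMIs and *S100a9* 8.14% and 4.13%. These 2 cells thus differed by more than the intervals of the sums show. They lay inside the range of the ACD cells, which began at 0, so this does not show that the libraries were alike.

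**Figure D2:**
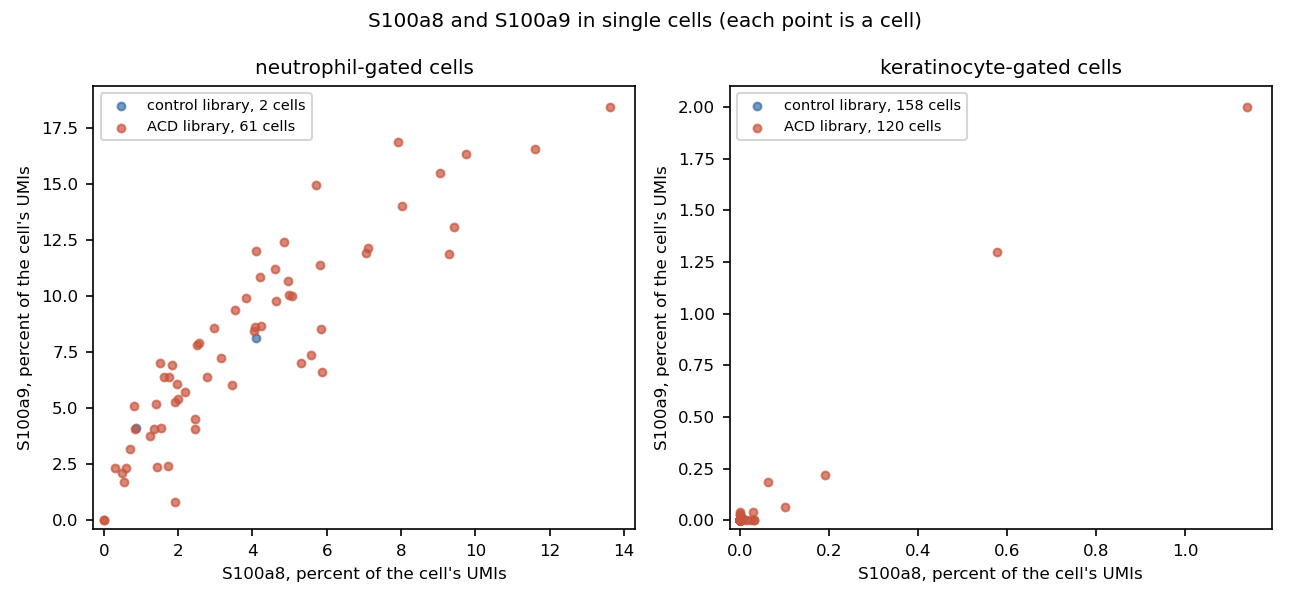
Each point is a cell, with *S100a8* on the horizontal and *S100a9* on the vertical axis, both as a percentage of the cell's UMIs, for neutrophil-gated cells (left) and keratinocyte-gated cells (right). Neutrophils spread along a rising band up to 13.6% and 18.5%, whereas most of the 120 ACD keratinocytes sit at 0 and a few stand apart, the highest at 1.14% and 2.00%.

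The other members split in neutrophils. *S100a6* was at 3967 and *S100a11* at 2951 (2679 to 3244) CPM in the 61 ACD neutrophils, and this *S100a11* level was the highest of the 14 classes with at least 20 cells in that library. *S100a4* was at 240 and *S100a10* at 302 CPM, and most neutrophils held no UMI of either. They were detected in 10 and 8 of the 61 cells. The 2 gated cells that lacked the pair held 27 of the 35 *S100a4* and 38 of the 44 *S100a10* UMIs, and in the 59 cells with the pair the levels were 64.1 (27.7 to 126) and 48.1 (17.7 to 105) CPM. In those 59 cells *S100a8* was at 44790 CPM, *S100a9* at 88962 and *S100a11* at 3352.

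Keratinocytes, the epithelial cells of the epidermis, had the second highest level of the pair among the ACD classes. *S100a8* was at 0.468 CPM in the 158 control keratinocytes (1 UMI) and at 128 (111 to 147) in the 120 ACD keratinocytes (208 UMIs), a log2 ratio of 8.10 (5.60 to 13.41). *S100a9* was at 0.936 (2 UMIs) and 201.1 (180 to 224) CPM (326 UMIs), a log2 ratio of 7.75 (5.88 to 10.80). These 2 ratios ranked 11 and 7 of 6641 genes. Depths of the kept cells were close, with medians of 13947 and 13970 UMIs per cell. The filter had removed 45 control and 123 ACD keratinocyte-gated barcodes, with median depths of 31987 and 40006 UMIs. Of these, 34 and 112 were above its UMI limit. The kept medians thus do not show that keratinocyte depths were alike before the filter.

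A few cells carried this signal. Of the 120 ACD keratinocytes 12 held an *S100a8* UMI and 14 an *S100a9* UMI, the top 5 cells held 92.8% and 95.4% of the UMIs, and 1 cell alone held 128 and 225. Without that cell the ACD levels were 49.7 (39.4 to 61.8) and 62.7 (51.1 to 76.2) CPM, still above the control intervals, which ended at 2.61 and 3.38. By subset, the 9 ACD cells with suprabasal markers, those of the differentiating layers, had 1070.4 CPM of *S100a8* and 1949 of *S100a9*, against 22.5 and 13.8 in the 105 basal cells. The cell with most of the pair was suprabasal, and without it the other 8 suprabasal cells had 137 (79.7 to 219) and 314 (223 to 429) CPM, on 17 and 39 UMIs, so most of the size of this contrast rested on that cell. Suprabasal cells made up few of the cells in both libraries, 11 in control and 9 in ACD. Another 6 ACD cells were assigned to neither subset and had 291 (199 to 411) and 391 (283 to 527) CPM, on 32 and 43 UMIs.

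Of 6 further genes of injured or activated epidermis, 4 had enough UMIs in keratinocytes and 2 were higher. *Krt16*, a stress keratin, went from 12.6 to 136 CPM (log2 ratio 3.42, 2.84 to 4.06), and *Sprr1b*, a cornified envelope gene, from 0.468 (1 UMI) to 38.2 (6.35, 3.82 to 11.68). Among the members, 3 of 6 were called higher and none lower in keratinocytes, where 1.63% of 6641 genes were higher and 0.376% lower.

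The third was *S100a4*, at 96.4 CPM in control and 217 in ACD keratinocytes (log2 ratio 1.17, 0.92 to 1.43). It was found in 66 of 158 and 60 of 120 cells, and the top 5 cells held 50.5% and 52.8% of its UMIs. The size of this difference depended on the filter. With the keratinocyte-gated barcodes that the filter removed, the levels were 113 and 128 CPM and the log2 ratio was 0.18 (0.01 to 0.35). Markers of mononuclear phagocytes, which express *S100a4*, summed to 128 (113 to 144) and 184 (164 to 207) CPM in these cells, with 8 and 7 of 15 markers detected. Fibroblast markers summed to 298 (275 to 322) and 410 (379 to 442) CPM, with 13 and 12 of 14 detected. Both lists were higher in ACD, as *S100a4* was, and their part in the result was not tested. T cell markers, with 8 and 7 of 10 detected, summed to 130 (115 to 146) and 132 (115 to 151) CPM. *S100a6* (2697 and 3441 CPM), *S100a10* (711 and 778) and *S100a11* (776 and 933) differed by log2 ratios of 0.35, 0.13 and 0.27 in keratinocytes.

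*Retnlg*, a neutrophil secretory gene that was not a gate marker, was used to set neutrophil RNA beside the pair. In ACD neutrophils *Retnlg* made up 6.50% (6.14 to 6.87%) of the UMIs of *S100a8*, *S100a9* and *Retnlg* together. In ACD keratinocytes it had 0 of 534 such UMIs, an exact interval of 0 to 0.688%, which lay below the neutrophil interval. A single keratinocyte held 128 *S100a8* and 225 *S100a9* UMIs of these. The interval treats UMIs as independent and does not cover the spread between cells. Whether it stays apart without that cell was not tested. The other comparators of the same list did not all follow. *Gm5483* and *Stfa2l1* were also at 0 in ACD keratinocytes, *Stfa2* had 7 UMIs, and *BC100530* had 568 UMIs (350 CPM) against 0 in control, beside 892 CPM in ACD neutrophils. These stefin genes have near-identical copies, so their counts are uncertain. Of 10 neutrophil markers 6 were at 0 UMIs in these keratinocytes, and the 10 summed to 3.08 CPM. In T cells the *Retnlg* share was 5.21% (1.71 to 11.7%), which overlapped that of neutrophils. In fibroblasts it was 2.80% (0.58 to 7.98%), also overlapping, and in chondrocytes 1.76% (0.37 to 5.07%), which did not. A single chondrocyte held 6 of the 52 *S100a8* and 44 of the 115 *S100a9* UMIs of that class. Whether the chondrocyte share stays apart without that cell was not tested. With all 5 comparators counted against the pair, the shares were 28.3% (20.7 to 37.0%) in T cells, 19.4% (12.95 to 27.3%) in fibroblasts, 14.8% (10.1 to 20.6%) in chondrocytes and 51.8% (48.9 to 54.8%) in keratinocytes, all above the 9.11% (8.70 to 9.54%) of neutrophils.

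**Figure D3:**
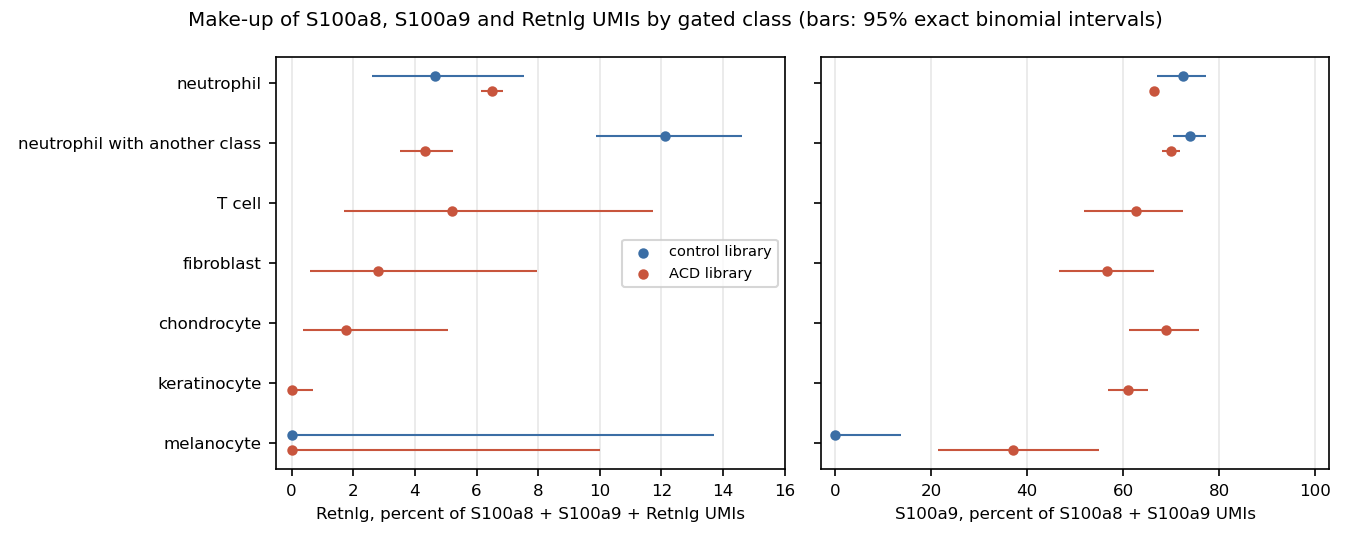
By class (rows), the left plot gives *Retnlg* as a percentage of *S100a8*, *S100a9* and *Retnlg* UMIs and the right plot *S100a9* as a percentage of the pair, with 95% exact binomial intervals, where a class had at least 20 such UMIs. Keratinocytes sit at 0 *Retnlg* with an interval that ends at 0.688%, for UMIs of which 1 cell held most, and control melanocytes at 0 *S100a9*.

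In the other ACD classes, melanocytes aside, the pair was at a low level, from 0 to 4.61 CPM for *S100a8* and from 0 to 9.09 CPM (3.65 to 18.7, 7 UMIs, basophils) for *S100a9*. T cells had 1.77 (1.23 to 2.48) CPM of *S100a8*, fibroblasts 2.28 (1.67 to 3.06), chondrocytes 1.93 (1.44 to 2.53), and pericytes and smooth muscle 1.56 (0.51 to 3.65). For *S100a9* the values were 2.97 (2.25 to 3.85), 2.99 (2.28 to 3.86), 4.26 (3.52 to 5.11) and 3.75 (1.94 to 6.55). Nearly all of these cells held exactly 1 UMI: 32 of 33 T cells and 38 of 41 fibroblasts with *S100a8*, and 59 of 59 fibroblasts with *S100a9*. In chondrocytes 1 cell held 44 *S100a9* UMIs, and without it the level was 2.63 (2.06 to 3.32). Control T cells held 0 UMIs of either gene in 2989783, an upper limit of 1.23 CPM for each.

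Shares of cells with a UMI were compared after every cell was thinned to 2000 UMIs. In ACD, *S100a9* was then seen in 0.703% of T cells, 0.591% of fibroblasts and 0.726% of chondrocytes, against 4.59% of keratinocytes and 93.3% of neutrophils. Thinning left out 63, 32, 14, 11 and 31 shallower cells of these classes. Unthinned, the shares were 2.03%, 3.12%, 2.49%, 11.7% and 96.7%, at median depths of 5600, 9406, 9079, 13970 and 1995 UMIs. The thinned T cell and fibroblast shares were not above the chondrocyte share, and none of these shares is read as expression. The part of free RNA in them was not tested. Of 6 members, 5 had at least 50 UMIs in T cells and none was called higher or lower, where 1.22% of genes were higher and 1.46% lower.

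Melanocytes, the pigment cells, were an exception. They held *S100a8* in both libraries, 23.1 (15.0 to 34.1) CPM in control (25 UMIs in 18 of 214 cells) and 18.3 (11.49 to 27.7) in ACD (22 UMIs in 16 of 189 cells). The control value was above the upper limits of T cells (1.23), fibroblasts (0.38) and chondrocytes (0.53) of that library. *S100a9* had 0 UMIs in the control melanocytes, an upper limit of 3.41 CPM, and 13 UMIs (10.8 CPM) in the ACD melanocytes. As a share of the pair, *S100a9* was 0% (0 to 13.7%) and 37.1% (21.5 to 55.1%), below the 66.5% (65.8 to 67.2%) of ACD neutrophils. No *Retnlg* UMI was found in either, and all 10 neutrophil markers were at 0 in the control melanocytes. Keratinocyte markers summed to 74.9 (59.5 to 93.05) and 112 (94.3 to 133) CPM in melanocytes, with 10 and 12 of 14 detected, and their part in the result was not tested. After thinning, 4.79% and 3.43% of melanocytes held *S100a8*. The most in a cell was 4 UMIs, so this is a low level.

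**Figure D4:**
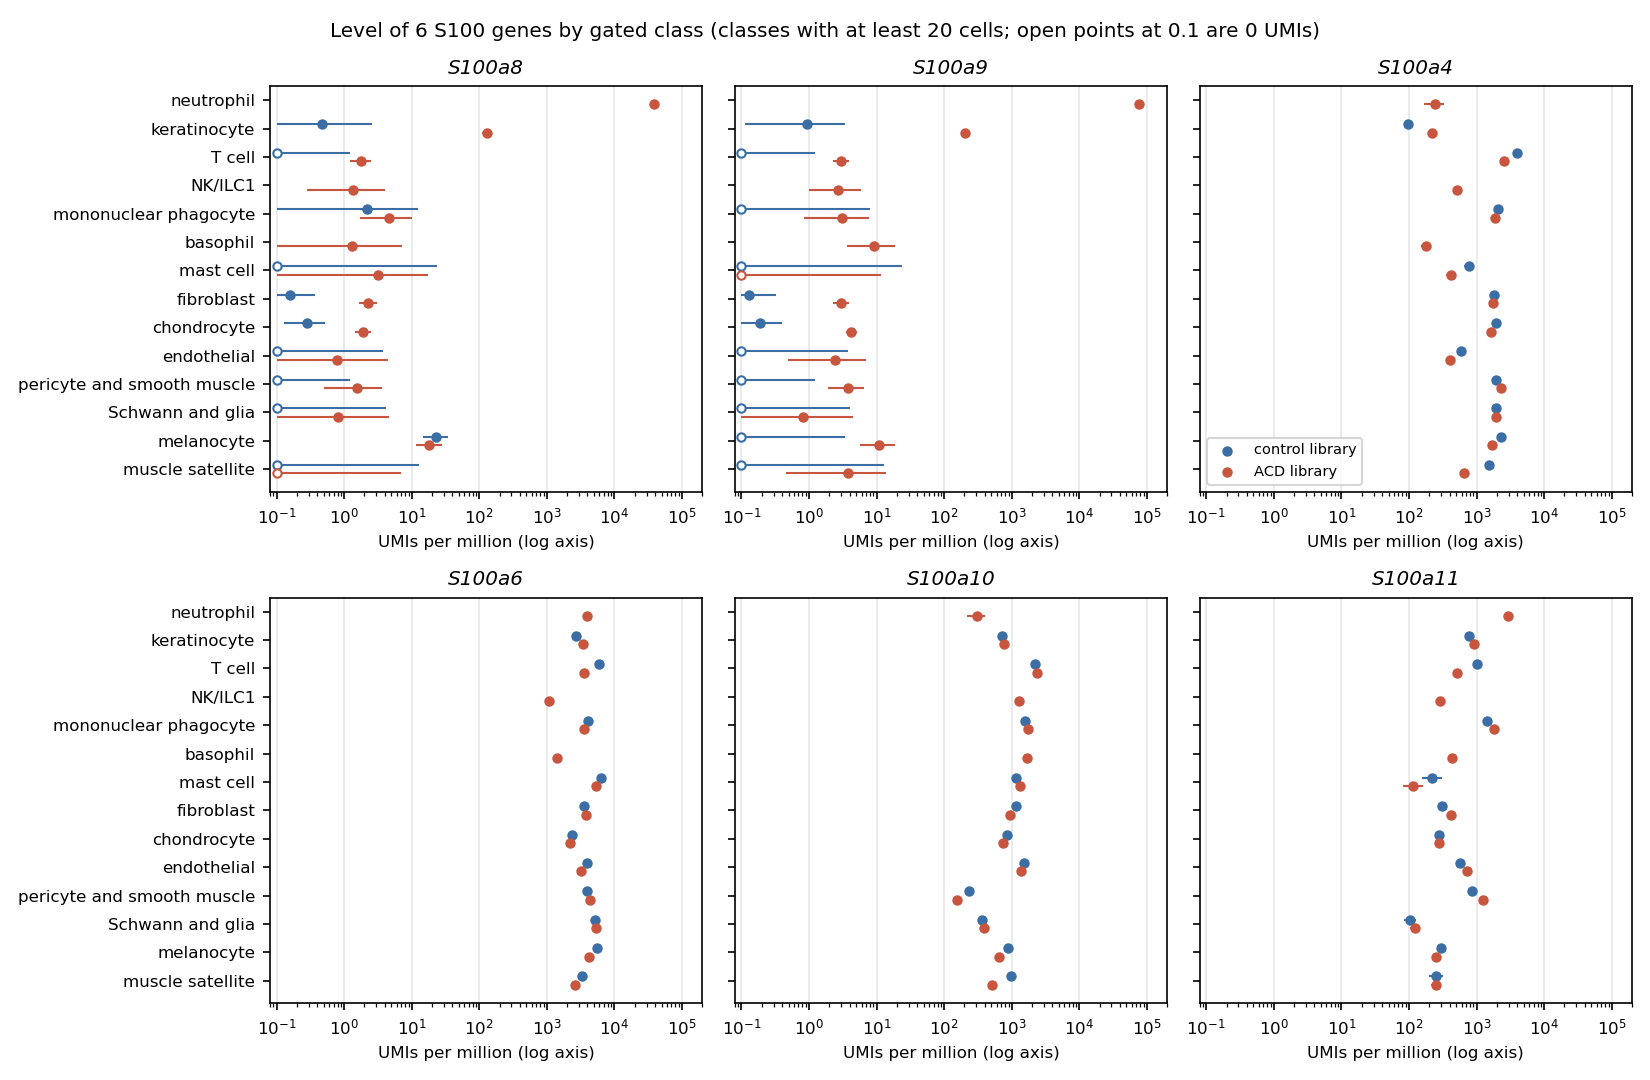
Horizontal positions give CPM on a log axis for each of the 6 genes, by gated class (rows), in control and ACD, with 95% exact Poisson intervals; open points at 0.1 mark 0 UMIs. *S100a8* and *S100a9* span from near 0 to 38342 and 76155 between classes, whereas *S100a6* stays between 1077 and 6338 in every class shown.

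The other 4 genes were expressed widely, each with an order of its own. In control, *S100a4* was highest in T cells, at 4024 CPM, and lowest in keratinocytes. *S100a6* was highest in mast cells (6338) and T cells (5861), whose intervals overlapped, and *S100a10* in T cells (2237). *S100a11* was highest in mononuclear phagocytes (1416 CPM), then T cells (1008). In ACD, NK/ILC1 cells and basophils, nearly absent from control with 5 and 3 cells, were low in *S100a4* (517 and 179 CPM) and *S100a6* (1077 and 1412) but not in *S100a10* (1286 and 1671).

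T cells had lower *S100a4*, *S100a6* and *S100a11* CPM in ACD. CPM is a share of UMIs, and median depths of T cells were 3707.5 in control and 5600 UMIs in ACD. The lower CPM thus does not show fewer molecules of these genes per cell. *S100a4* was at 4024 and 2531 CPM (log2 ratio -0.67, -0.70 to -0.64) in 674 control and 2765 ACD cells. *S100a6* was at 5861 and 3555 (-0.72, -0.75 to -0.70), and *S100a11* at 1008 and 517 (-0.96, -1.02 to -0.90). *S100a10* was at 2237 and 2345 CPM, a log2 ratio of 0.07 (0.03 to 0.10). The median of all 10484 genes in T cells was -0.08, and median-of-ratios size factors differed from total UMIs by a log2 shift of -0.14 in T cells, which made these differences smaller by that much and kept their directions. *Anxa1*, the annexin partner of S100A11, was also lower in T cells, at 343 and 145 CPM (-1.24, -1.34 to -1.13), and was the 1 of 11 binding partners called there.

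The T cell subsets differed in level and in number. IL-17 gamma delta T cells had the highest *S100a4*, *S100a6* and, in ACD, *S100a11* of the subsets, and made up 51.0% (47.2 to 54.9%) of control but 20.1% (18.7 to 21.7%) of ACD T cells. When the change of *S100a6* over T cells was split, 41.6% came from subset weights and 58.4% from levels within subsets. For *S100a4* 73.7% and for *S100a11* 76.6% came from levels within subsets. In the gamma delta subset *S100a6* was at 7177 and 6021 CPM and *S100a11* at 1209 and 983 (log2 ratio -0.30, -0.38 to -0.22).

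CD4 and CD8 T cells showed the larger differences in *S100a11*. It was at 807 CPM in 59 control CD4 cells and 339 in 640 ACD CD4 cells (-1.25, -1.44 to -1.06). In CD8 cells it was at 1301 (1034 to 1614) in 13 control cells and 401 (384 to 417) in 669 ACD cells (-1.70, -2.02 to -1.36). Treg cells, 18 in control and 317 in ACD, had 465 and 435 CPM, and their interval of the ratio (-0.55 to 0.39) included 0. With 13 and 18 control cells, these values rest on very few cells.

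**Figure D5:**
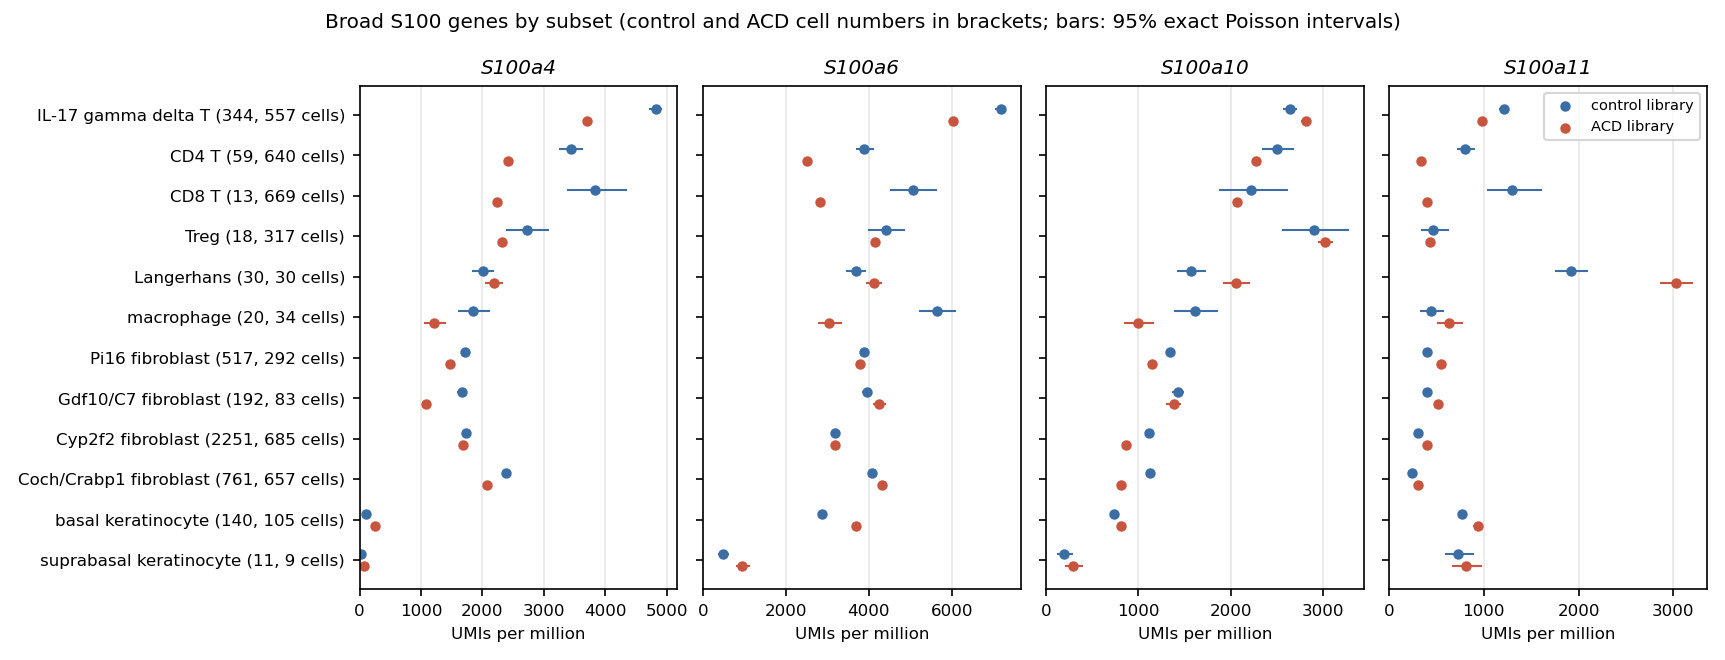
For *S100a4*, *S100a6*, *S100a10* and *S100a11*, points give CPM in subsets of T cells, mononuclear phagocytes, fibroblasts and keratinocytes in control and ACD, with 95% exact Poisson intervals and cell numbers in brackets. The ACD points of *S100a11* lie to the left of control in gamma delta, CD4 and CD8 T cells and to the right in Langerhans cells and all 4 fibroblast subsets.

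In mononuclear phagocytes *S100a11* was at 1416 CPM in 60 control cells and 1811 in 157 ACD cells (log2 ratio 0.35, 0.23 to 0.48). Langerhans cells, the dendritic cells of the epidermis, numbered 30 in each library and had the highest *S100a11* of the subsets, 1923 (1755 to 2103) and 3031 (2862 to 3208) CPM (0.66, 0.50 to 0.81). *S100a10* was also higher there, at 1568 and 2060 (0.39, 0.22 to 0.57). Macrophages had less *S100a6*, at 5648 and 3044 CPM (-0.89, -1.07 to -0.71), in 20 and 34 cells. None of 4 members with enough UMIs was called in this class, where 4.14% of genes were higher and 3.34% lower. *Cybb*, a subunit of the NADPH oxidase that S100A8/A9 can bind to, was higher there, from 106 to 347 CPM (1.71, 1.28 to 2.17).

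Mast cells, shallow at median depths of 1052 and 1716 UMIs, had *S100a4* at 777 and 422 CPM (log2 ratio -0.88, -1.25 to -0.51) and *S100a11* at 222 and 116 (-0.94, -1.65 to -0.23), on 34 and 37 UMIs for the latter. None of 4 members was called, where 1.74% of genes were higher and 3.23% lower.

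Fibroblasts, the collagen-producing cells of the dermis, had higher *S100a11* and lower *S100a10* CPM in ACD, both by less than 2-fold. Their median depths were 7064 in control and 9406 UMIs in ACD, so lower CPM does not show fewer molecules per cell. *S100a11* was at 313 CPM in 3974 control cells and 413 in 1894 ACD cells (log2 ratio 0.40, 0.36 to 0.44), and the ratio lay between 0.36 and 0.47 in all 4 fibroblast subsets. *S100a10* was at 1171 and 941 (-0.32, -0.34 to -0.29), with -0.05 (-0.16 to 0.06) in the Gdf10/C7 subset and between -0.47 and -0.22 in the other 3. *S100a4* was at 1834 and 1733 CPM and *S100a6* at 3531 and 3751, log2 ratios of -0.08 and 0.09. Chondrocytes showed no *S100a11* difference beyond counting error (281 and 277, -0.02, -0.07 to 0.02). None of 6 members was called in fibroblasts, where 0.811% of genes were higher and 0.114% lower, nor in chondrocytes (0.374% and 0.00797%).

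Pericytes and smooth muscle cells went the same way, with *S100a11* at 848 and 1251 CPM (log2 ratio 0.56, 0.49 to 0.63) and *S100a10*, low in this class, at 234 and 157 (-0.57, -0.74 to -0.40). Endothelial cells had *S100a4* at 590 and 399 CPM (-0.56, -0.74 to -0.39) and *S100a11* at 569 and 716 (0.33, 0.18 to 0.49). *Ahnak*, a giant scaffold protein that S100A10 and annexin A2 hold at the membrane, was lower in endothelial cells, at 1309 and 647 (-1.02, -1.15 to -0.89). Of 4 members each, none was called in pericytes and smooth muscle (1.08% of genes higher and 0.485% lower) or endothelium (2.79% and 1.07%).

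Glia and pigment cells stayed within the 2-fold limit. In Schwann cells and glia *S100a4* and *S100a6* had log2 ratios of 0.01 and 0.01, and in melanocytes all 4 broad members had ratios between -0.49 and -0.23. None of 4 members was called in either, where 1.56% and 1.5% of genes were higher and 0.165% and 0.684% lower.

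Muscle satellite cells, the stem cells of skeletal muscle, had 1528 CPM of *S100a4* in 59 control cells and 660 in 97 ACD cells (log2 ratio -1.21, -1.42 to -1.004). The gene was found in 48 of 59 and 52 of 97 cells. Of 4 members this was the 1 called lower and none was called higher, where 1.55% of 2129 genes were lower and 1.74% higher. *S100a10* was at 965 and 518 CPM (-0.90, -1.15 to -0.65). Fibroblast markers, of which 10 of 14 were detected in each library, summed to 2387 (2211 to 2574) and 1239 (1145 to 1337) CPM in these cells, and their part in the result was not tested.

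Each change over all cells was split into a part from how many UMIs each class held and a part from levels within classes. The change of *S100a8* over all kept cells, 64.3 CPM, split into 66.9 from the weights of the classes and -2.56 from levels within them, and that of *S100a9*, 125 CPM, into 162 and -37.1. The negative level parts came from the cells with neutrophil markers beside another class (-19.7 and -57.6), of which control had 1 cell. Without that class the level parts were 17.1 and 20.5 and the weight parts 42.5 and 94.7. These rest on few cells too. In the full split the neutrophil class gave level parts of 12.2 and 13.6, and its control level came from 2 cells. For *S100a4* a gain of 222 from class weights stood against -376 from levels, for *S100a6* 230 against -337 and for *S100a10* 233 against -103. For *S100a11* the change of 81.6 split into 81.5 from weights and 0.0783 from levels. T cells went from 6.43% to 25.9% of *S100a4* UMIs and from 6.95% to 38.4% of *S100a10* UMIs, while their share of all UMIs went from 3.24% to 19.2%.

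Over 25 pairs of class and library with at least 20 cells, *S100a8* and *S100a9* correlated at r of 0.98, and *Retnlg* and the stefin gene *Gm5483* came next at 0.94 for each. *Gm5483* belongs to a family of near-identical copies, so its count is uncertain. No other 2 members correlated above 0.49. The 3 genes most like *S100a4* were *Lats2*, *Dnajc3* and *Lpcat1* (0.80 to 0.77), and those most like *S100a6* were *BC004004*, *Tceb2* and *Lamtor1* (0.89 to 0.76). For *S100a10*, *Asnsd1* and *Aprt* came first (0.76 and 0.75), and for *S100a11* the 3 were *Dgkh*, *Msra* and *Sesn2* (0.80 to 0.76). These are correlations over classes that share 2 libraries, among 13392 genes, and are given as a description.

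Of 8 receptor genes of extracellular S100 proteins, all were measured over all kept cells and none was called in either direction, there or, among the 1 to 6 with at least 50 UMIs, in any of the 11 classes. Of 11 binding partners, 1 was called over all kept cells, *Ncf4*, a cytosolic subunit of the NADPH oxidase, at 3.99 and 30.2 CPM (log2 ratio 2.92, 2.77 to 3.08).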

How the data were processed

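Single-cell RNA-seq of mouse ear skin was analysed from 2 libraries, 1 control and 1 ACD. The authors made the deposited UMI count matrices with Cell Ranger 3.1.0 on mm10 (per the labels; the aligner's settings are not given in the sources used here), counting each 3′ molecule once. Kept barcodes had 201 to 4999 genes, less than 8% of UMIs from mitochondrial genes, and no more than 25000 UMIs, a bound that the methods give as a minimum and that was taken here as a maximum. This left more cells than the study states. The libraries held 99037698 and 126566870 UMIs in 12895 and 13163 barcodes, of which 682 and 1498 were removed. A cell was gated to the class with the highest share of its markers detected, with at least 3 markers and 1.5 times the share of any other class. After the data were seen, a haemoglobin list was dropped from the gate, because free haemoglobin RNA kept cells from being gated, and cells with neutrophil markers beside another class were set apart. Doublets were not removed; Scrublet (scanpy 1.11.5) calls were an alternative.

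Levels are UMI sums per 1000000 UMIs. With 1 library per condition there is no replicate, so no test was run. A gene was called at a 2-fold difference with 10 CPM added and at least 50 UMIs; ratios and their intervals have nothing added. Shares of cells were compared after thinning to 2000 UMIs. The genes named are the 6 members, those of fixed lists with at least 50 UMIs, and the 3 genes most like each member (at least 200 UMIs). A gene that this rule names is not reported here. *Stfa2l1*, *Stfa2* and *Gm5483* in keratinocytes were named after their values were seen. Values without the top keratinocyte, without neutrophils that lack the pair and without the mixed class were also added after the data were seen. Members, lists and markers were chosen with earlier results of these data known. Intervals and calls were checked on simulated counts. Python 3.11.15, numpy 2.4.6, scipy 1.17.1 and pandas 2.3.3 were used. A further sample that the methods mention was not analysed here.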

Additional observations from a re-analysis of the deposited data

Results flagged for a closer look

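The barcodes that the filter left out also held the calprotectin pair. In the ACD library 123 removed barcodes were keratinocyte-gated, 112 of them above the UMI limit, with a median of 40006 UMIs. They held *S100a8* at 299 CPM (286 to 313, 1836 UMIs in 52 barcodes) and *S100a9* at 321 CPM (307 to 336, 1970 UMIs in 44 barcodes). The 45 removed control keratinocyte barcodes held 1.91 CPM (0.39 to 5.57) and 0 CPM (0 to 2.34). A single ACD barcode held 1046 and 1531 of these UMIs, and without it the levels were 130 (121 to 139) and 72.2 (65.6 to 79.3) CPM. *Retnlg* had 1 UMI in the 123 barcodes.

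*S100a4* was called in opposite directions in 2 classes, with a log2 ratio of 1.17 in keratinocytes and -1.21 in muscle satellite cells. The difference between these ratios was not tested, and the keratinocyte value was 0.18 with all deposited barcodes.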

How the results depend on the processing

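No paired analysis was possible because each condition had 1 library. Of 502 alternative values of the 57 ratios with at least 50 UMIs, 425 differed from the reported ratio by no more than its counting error, 77 moved further and 0 turned a called direction. Of 362 alternative values of the counts of members called and of the neutrophil shares, 21 moved. The 6 ratios past 2-fold kept their direction in 55 of 55 alternative values and stayed past 2-fold in 54; the exception was *S100a4* in keratinocytes with all deposited barcodes. The percentages of ACD *S100a8* and *S100a9* UMIs in neutrophils were 63.6% and 70.9% with all deposited barcodes, 83.7% and 83.6% when a marker counted from 2 UMIs, and 86.1% and 87.5% without Scrublet calls. In alternatives chosen after seeing the data, they were 70.3% and 72.3% with the haemoglobin list in the gate and 86.6% and 86.5% without the cell of each class with most UMIs of the pair, where the control values were 34.5% and 89.3%. Counts of members called moved as follows. With all deposited barcodes 2 were lower in muscle satellite cells. With at least 500 genes and under 5% mitochondrial UMIs 1 was lower in mast cells. With markers from 2 UMIs 1 was higher in fibroblasts. With 1 CPM added 1 was higher in T cells, 2 in fibroblasts and 2 in chondrocytes, all of the calprotectin pair at a few CPM. At 1.5-fold 3 were lower in T cells, 2 in mast cells and 2 in muscle satellite cells. The cause of these moves was not tested. The share of all genes called was worked out only for the main rule, so these counts are not read as a result about the members. Scrublet called 4.77% of control and 3.53% of ACD cells, 0 of 120 ACD keratinocytes and 4 of 21 ACD cells with neutrophil and other markers. Precision is limited by few cells: 2 control neutrophils, 13 control CD8 T cells and 1 ACD keratinocyte with most of the pair's UMIs.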

Other observations

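Of 11 other S100 family genes, 8 had at least 50 UMIs over all kept cells and none was called there. *S100a14* was found mainly in keratinocytes, at 739 CPM in control and 745 in ACD (log2 ratio 0.01, -0.10 to 0.12). *S100b*, a glial and cartilage marker, was at 261 and 286 CPM in chondrocytes and at 897 and 801 CPM in melanocytes. *S100a1*, which acts in muscle, was at 322 and 325 CPM in chondrocytes and at 652 and 620 CPM in melanocytes. *S100a3* was lower in ACD melanocytes, at 79.5 and 27.5 CPM (86 and 33 UMIs, log2 ratio -1.53, -2.16 to -0.94), the 1 gene of this list called in any of the 11 classes.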
